A study of Arabidopsis thaliana with 27 samples.

Results

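The early ozone response of Arabidopsis thaliana leaves, measured after 3 h, was compared with the late response, measured after 2 d, with the 2 genotypes of the study averaged. The comparison took in all 27 of the 27 arrays: 12 at 3 h and 15 at 2 d. For each probe set, a short stretch of a transcript read on the Affymetrix ATH1 array, the ozone minus clean-air difference was taken at each time, and the 3 h response was subtracted from the 2 d response. A positive difference therefore means that the 2 d response lay above the 3 h response, and a negative one that it lay below, whichever way the gene moved at either time.

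The design text gives early and late changes of gene expression under ozone as the aim. Plants were the Columbia wild type (Col-0) and the double mutant gpa1-4/agb1-2, null for both GPA1 and AGB1, the genes of the G-alpha and G-beta proteins. They were 4 to 5 weeks old when moved from a cycle of 9 h light and 15 h dark into 4 chambers at 24 °C, where ozone stood at 5 ppb (clean air) or at 125 ppb during 7 h of each day. Mid-whorl leaves were taken from each genotype in each air after 3 h, with 3 arrays per group, and after 2 d, with 4 arrays per group except for the mutant in clean air with 3. With genotypes pooled, this gave 6 clean-air and 6 ozone arrays at 3 h and 7 and 8 at 2 d. The labels call the replicates biological but do not say which plants were pooled for an array or at what clock time leaves were cut. They also do not say in which chamber the plants stood. Age, time of day and chamber therefore cannot be told apart from sampling time. Each chamber held either clean air or ozone, so chamber cannot be told apart from the ozone minus clean-air differences either. Arrays of plants from the same chamber would not be independent replicates of ozone. No named probe set reads GPA1 or AGB1, and the mutation was not checked on these arrays.

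Ozone enters leaves through the stomata and breaks down in the cell wall space into reactive oxygen species. An early phase of signalling follows, with calcium, receptor kinases, ethylene, salicylate and jasmonate as messengers and with WRKY, AP2/ERF and zinc-finger factors among the genes that respond. Under longer exposure leaves are known to lose transcripts of photosynthesis and to build up transcripts of defence and protein folding. The heterotrimeric G protein is known to take part in the oxidative signalling that follows ozone.

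Median intensities of the arrays lay between 153.5 and 182, Pearson correlations between replicate arrays ran from 0.916 to 0.965, and 0 pairs of arrays were identical. Values below are log2(intensity + 1) for levels and log2 units for differences, which understates the change of dim genes. The leaf identity of the samples could be checked on few markers: 4 of 12 mesophyll markers were among the named probe sets (RCA, LHCB4.1, PRK and PSAN). Their mean level was 13.88 to 14.26 in clean air and 13.67 to 14.56 in ozone at 3 h, and 13.8 to 14.1 and 13.32 to 13.86 at 2 d. No marker of phloem, root or pollen was among the named probe sets, so their levels were not seen. Here and below, measured genes are those with a named probe set. The platform annotation leaves 8730 of the 22746 probe sets unlisted, so gene lists can miss members of a family. In whole leaves, fewer cells of a type and less RNA per cell cannot be told apart.

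The 2 d response differed from the 3 h response in 1684 of 22746 probe sets, or 7.4% (limma, Benjamini-Hochberg adjusted p under 0.05, the rule for every call here). The late response lay above the early one in 990 (4.35%) and below it in 694 (3.05%). At an unadjusted p under 0.05 there were 4936. Leaving out 1 array in turn gave 1105 to 2112 calls, the lowest without replicate 1 of the wild type in clean air at 3 h.

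At 3 h, ozone raised 983 probe sets (4.32%) and lowered 426 (1.87%). At 2 d it raised 1254 (5.51%) and lowered 1194 (5.25%). The early response leaned toward increases, at 69.8% of its calls, but this share fell to 58.5% (895 up, 634 down) with each array centred on its median. The 3 h count went from 1409 to 2526 without replicate 3 of the wild type in ozone at 3 h, and to 750, 792, 851, 892 and 924 without, in turn, replicate 2 of the mutant in ozone, replicate 1 of the mutant in clean air, replicate 2 of the wild type in ozone, replicate 3 of the mutant in clean air and replicate 1 of the wild type in ozone. The 2 d count went from 2448 to 1378 without replicate 1 of the mutant in clean air at 2 d.

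**Figure D1:**
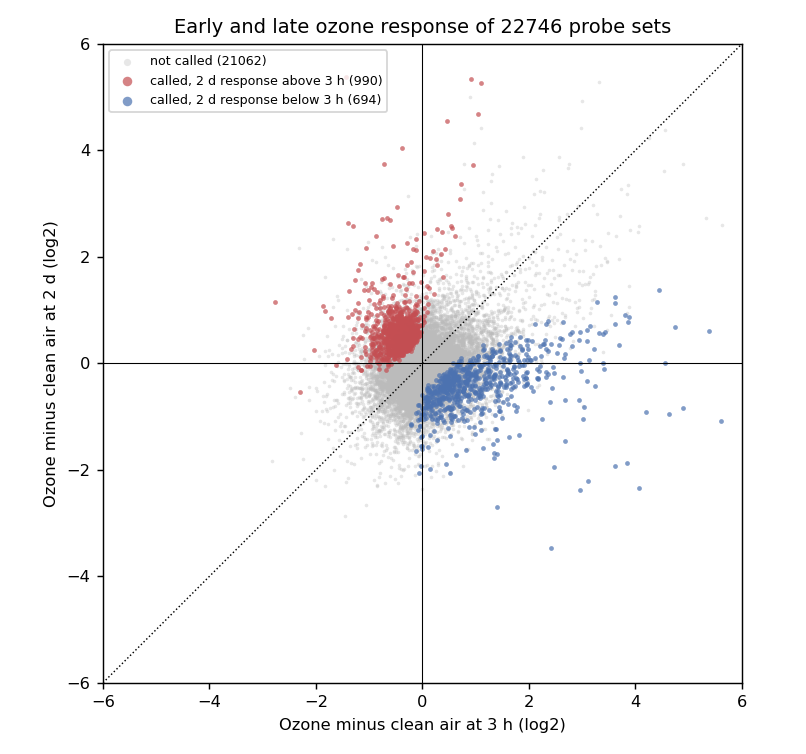
Ozone minus clean-air difference (log2) at 3 h (x axis) and at 2 d (y axis), genotypes averaged, with 1 point per probe set; red points are the 990 with a 2 d response above the 3 h response, blue points the 694 below it, and grey points those not called. Of the blue points, 365 rose at 3 h and were not called at 2 d, with medians of 1.36 and -0.164. Of the red points, 503 rose at 2 d alone, with medians of -0.317 at 3 h and 0.689 at 2 d. The choice of these sets favours such positions.

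The 2 responses share no array, but both tests use the same estimate of each probe set's spread. This can favour calls of the same probe set at both times. Of 3608 probe sets called at either time, 249 were called at both, of which 138 rose at both and 21 fell at both. The 983 early risers had a median of 1.31 at 3 h and of 0.204 at 2 d, where 656 (66.7%) still lay above 0, beside 44.0% of all probe sets. At 2 d 138 of the 983 rose again by the test, beside 5.51% of all. The 426 early fallers went from a median of -0.743 to 0.0786, with 238 (55.9%) above 0 at 2 d, beside the same 44.0%. The 1254 late risers had a median of 0.773 at 2 d and of -0.0791 at 3 h, and the 1194 late fallers -0.748 and -0.0987. Across all 22746 probe sets, which are not independent of each other, the responses correlated at 0.227.

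Among the 694 probe sets whose late response lay below the early one, 365 (52.6%) had risen at 3 h and were not called at 2 d, with medians of 1.36 and -0.164. Another 184 (26.5%) fell at 2 d alone, 29 (4.18%) rose at 3 h and fell at 2 d, 1 rose at both times and 115 (16.6%) were called at neither. Among the 990 whose late response lay above, 503 (50.8%) rose at 2 d alone, with medians of -0.317 at 3 h and 0.689 at 2 d. A further 156 (15.8%) fell at 3 h alone, 61 (6.16%) fell at 3 h and rose at 2 d, and 270 (27.3%) were called at neither time. In both sets most members were called at 1 time alone, which the choice of the sets on the difference between the times favours.

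The plants also differed between the sampling times without ozone. In clean air 4028 probe sets (17.7%) changed from 3 h to 2 d, of which 1856 rose and 2172 fell. In ozone 6036 (26.5%) changed, of which 2432 rose and 3604 fell, a contrast added after the values were seen. The called sets were chosen on the difference between these 2 shifts, which favours opposite signs in the 2 airs, so their shifts are a description only. Of the 990 with the late response above, 404 fell and 42 rose from 3 h to 2 d in clean air, while in ozone 618 rose and 22 fell. The median shift was -0.399 in clean air and 0.54 in ozone, beside -0.0844 and -0.16 over all probe sets. Of the 694 with the late response below, 350 rose and 2 fell in clean air, and 14 rose and 373 fell in ozone, with medians of 0.668 and -0.621. A change in opposite directions in the 2 airs was called in 86 of the first set and 70 of the second.

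**Figure D2:**
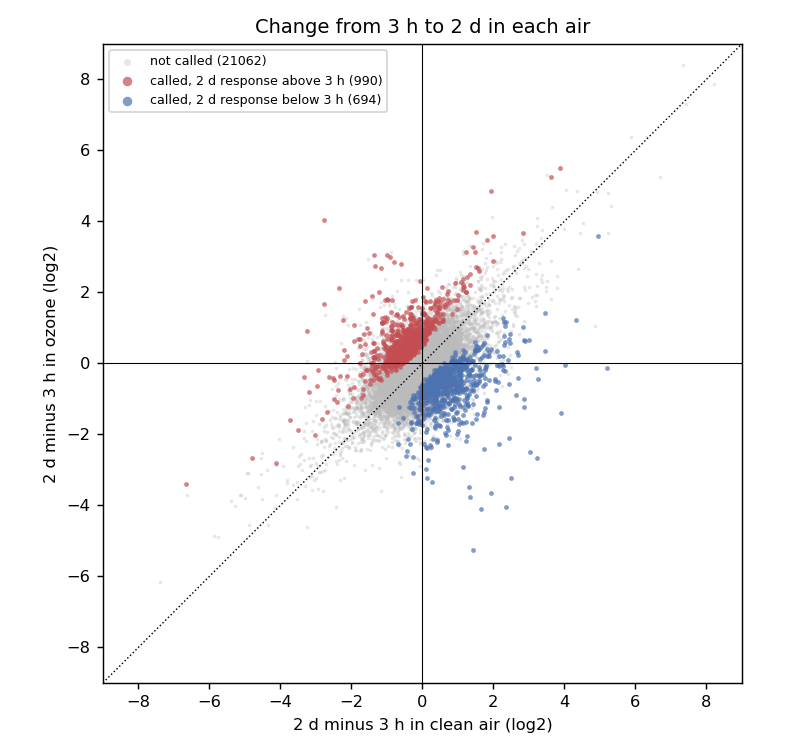
Change from 3 h to 2 d (log2) in clean air (x axis) and in ozone (y axis), genotypes averaged, with 1 point per probe set and the dotted line marking equal change; red points are the 990 with a 2 d response above the 3 h response, blue points the 694 below. Red points lie above the line with a median of -0.399 in clean air and 0.54 in ozone, and blue points below it with medians of 0.668 and -0.621, signs that the choice of these sets favours.

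Single genes show how wide these shifts in the controls were. TRY, a MYB-type repressor of trichome formation and the 1 measured marker of the epidermis list, stood at 7.84 to 8.69 in clean air and 7.17 to 8.75 in ozone at 3 h, and at 2.68 to 5.54 and 2.61 to 5.83 at 2 d. All 2 d values lay below all 3 h values, in both airs. COR27, a cold-regulated gene under the circadian clock, rose by 7.33 in clean air from 3 h to 2 d. FMA, a guard cell factor, lay between 6.75 and 8.14 on all arrays. The part of leaf age, light history, time of day or chamber in the ozone by time differences was not tested.

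Among named genes with a symbol, the most positive difference was that of AMY1, a secreted alpha-amylase that breaks down starch. Its level was 7.55, 8.54 and 9.52 (lowest, median, highest) in clean air and 7.06, 8.18 and 9.33 in ozone at 3 h. At 2 d it was 6.37, 6.85 and 8.49 in clean air and 10.21, 11.36 and 12.01 in ozone. The ranges overlapped at 3 h, and at 2 d all 8 ozone arrays lay above all 7 clean-air arrays. The response was -0.38 ± 0.46 (SE) at 3 h and 4.05 ± 0.42 at 2 d, and the late response lay 4.43 ± 0.62 above the early one (limma adjusted p = 0.000745), by 4.69 in wild type and 4.16 in the mutant. Of the other genes of starch breakdown, PWD and DPE1 fell at 3 h by 0.79 and 0.95, and neither was called at 2 d. Of the 4 measured genes of that list only AMY1 passed for the difference, beside 4.35% of all probe sets called above. All 4 had a difference above 0, with a median of 0.692 beside -0.0686 over all probe sets.

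SAL2, a member of the family of bisphosphate nucleotidases, had levels of 6.46, 8.43 and 10.55 in clean air and 7.6, 9.42 and 10.17 in ozone at 3 h. At 2 d clean air gave 6.99, 7.67 and 8.16, and ozone 10.34, 10.91 and 11.69. Only the 2 d ranges were apart. SAL2 rose by 3.37 ± 0.47 at 2 d, and its late response lay 2.66 ± 0.71 above the early one (adjusted p = 0.0257). This call passed in 26 of the 27 fits that left out 1 array.

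The cytochrome P450 gene CYP71B26 gave a late response through a smaller fall in ozone than in clean air. At 3 h its level was 11.11, 11.58 and 11.7 in clean air and 10.87, 11.17 and 11.76 in ozone. At 2 d it was 6.51, 7.15 and 9.36 in clean air and 8.32, 9.47 and 11.21 in ozone, so the ranges overlapped at both times. From 3 h to 2 d CYP71B26 fell by 3.74 in clean air and by 1.60 in ozone, and the late response lay 2.13 ± 0.58 above the early one (adjusted p = 0.0279), passing in 25 of 27 fits without 1 array. Of the 23 measured P450 genes it was the only one called for the difference, beside 4.35% of all probe sets called above and 3.05% below. CYP71B23 rose at both times, by 2.19 and 1.69, and its difference of -0.49 was not called.

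DI21, a drought-induced gene, stood at 6.6, 7.04 and 7.45 in clean air and 5.66, 6.38 and 7.58 in ozone at 3 h. At 2 d it stood at 5.34, 6.25 and 7.49 in clean air and 6.07, 8.16 and 8.58 in ozone. Ranges overlapped at both times, and the late response lay 2.09 ± 0.48 above the early one (adjusted p = 0.0115). The remaining 10 of the 14 genes with the most positive difference are given by locus alone, since the gene table holds no symbol for them. Their differences ran from 1.99 for AT1G53100 to 6.80 ± 1.37 for AT2G44240. AT2G44240 had levels of 2.35, 2.83 and 4.99 in clean air and 5.3, 8.93 and 11.92 in ozone at 2 d, without overlap. At 3 h its levels were 2.68, 6.13 and 9.62 in clean air and 2.41, 4.22 and 8.08 in ozone, which overlap.

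**Figure D3:**
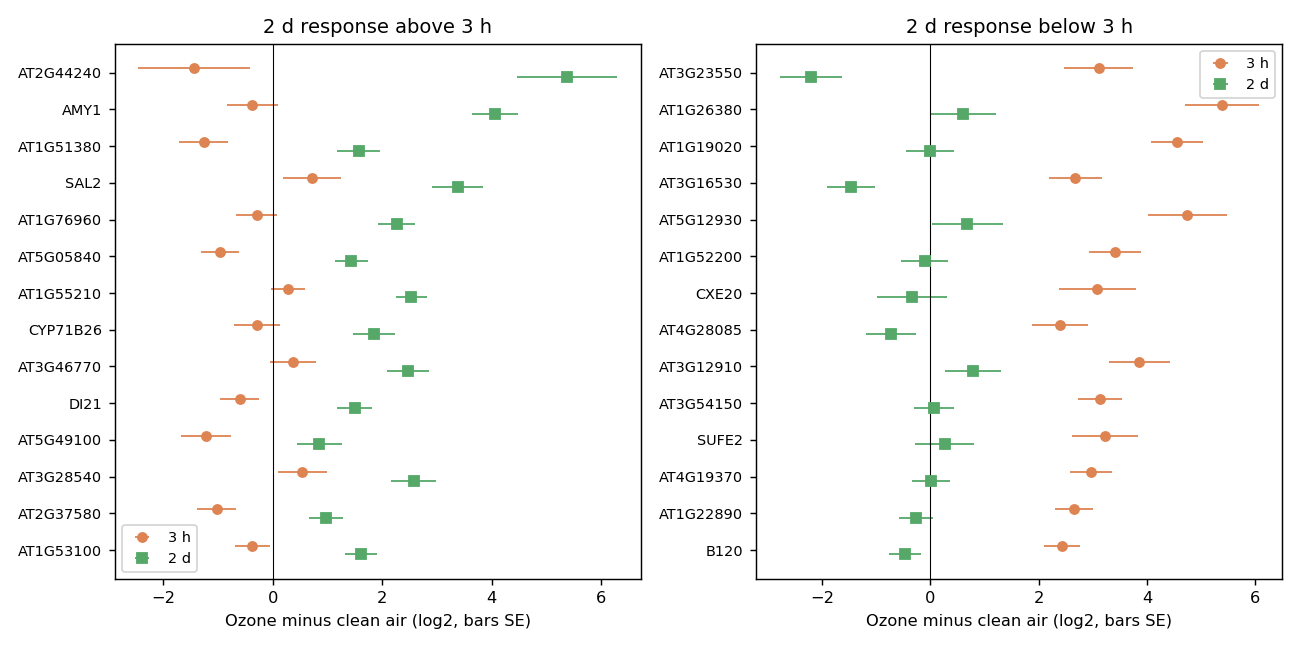
Ozone minus clean-air difference (log2, ± SE from the fit) at 3 h and 2 d for the 14 genes with the most positive and the 14 with the most negative difference between the 2 times. AMY1 has a 2 d response of 4.05 beside -0.38 at 3 h, and B120 has 2.44 at 3 h beside -0.46 at 2 d.

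Of 6 genes on the list of protein folding in the endoplasmic reticulum 3 rose at 2 d, beside 5.51% of all probe sets. The 1 that rose at 3 h, beside 4.32%, was ATCRT1, which entered by its symbol alone. For the difference 1 was called above, beside 4.35%, and 1 below, beside 3.05%, the latter again ATCRT1. CRT1b, a calreticulin that binds calcium and helps glycoproteins fold, had levels of 11.15, 12.3 and 13.37 in clean air and 10.86, 11.95 and 13.27 in ozone at 3 h. At 2 d they were 10.61, 10.85 and 11.07 in clean air and 12.09, 12.31 and 12.88 in ozone, with no overlap. CRT1b rose by 1.51 ± 0.30 at 2 d, and the late response lay 1.70 ± 0.45 above the early one (adjusted p = 0.0245). The co-chaperone genes ATERDJ3B and ATERDJ2B rose at 2 d by 1.27 and 0.92, but their differences of 0.63 and 0.79 were not called. ATCRT1 (AT5G56340) rose by 1.23 at 3 h and had a difference of -1.36. No folding role is given for it here, so its 2 calls are not read as results about folding genes.

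Of 9 cytosolic and organelle heat shock genes 3 rose at 3 h and 2 at 2 d, beside 4.32% and 5.51% of all probe sets. Hsp70-2, a heat shock protein of the Hsp70 class, rose by 2.78 at 3 h and by 1.96 at 2 d, and Hop3, an Hsp70-Hsp90 organising co-chaperone, by 3.19 and 2.29. Fes1A, which protects Hsp70 in the cytosol, rose by 2.34 at 3 h and missed the threshold at 2 d (limma adjusted p = 0.0523). None of the 9 passed for the difference between times, with a median of -0.502.

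Of 6 measured WRKY genes 3 rose at 3 h, beside 4.32% of all probe sets, as did 1 of 16 AP2/ERF and zinc-finger genes and 1 of 14 bZIP genes. WRKY6, a factor of defence and senescence, stood at 3.77, 5.51 and 6.68 in clean air and 8.15, 9.13 and 9.61 in ozone at 3 h. At 2 d it stood at 4.25, 6.9 and 7.78 in clean air and 6.12, 7.31 and 8.69 in ozone. All 6 ozone arrays lay above all 6 clean-air arrays at 3 h, and the ranges overlapped at 2 d. WRKY6 rose by 3.61 ± 0.48 at 3 h, its 2 d response was 0.73 ± 0.44, and the late minus early difference was -2.88 ± 0.65 (adjusted p = 0.011). It was the only 1 of these 6 called for the difference, beside 3.05% of all probe sets called below. WRKY genes on unnamed probe sets were not counted. WRKY53, another senescence factor, rose by 2.59 and 1.66, and WRKY47 by 0.98 and 0.97, at 3 h and 2 d, and neither difference was called.

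STZ (ZAT10), a zinc-finger repressor induced by salt, cold and oxidative stress, had levels of 8.28, 8.9 and 9.5 in clean air and 10.58, 11.47 and 11.96 in ozone at 3 h. At 2 d the levels were 9.09, 10.59 and 11.4 in clean air and 9.48, 10.22 and 12.66 in ozone. The ranges were apart only at 3 h, where STZ rose by 2.53 ± 0.49. Its late minus early difference was -2.33 ± 0.66 (adjusted p = 0.0337), a call kept in 13 of the 27 fits without 1 array. It was the only call among 16 AP2/ERF and zinc-finger genes, beside 3.05% of all probe sets called below. The AP2 factors tny and PUCHI fell at 2 d by 0.86 and 0.60 with no call for the difference. bZIP52 fell at 2 d by 0.55 and had a difference of -0.71 ± 0.18, the only call among 14 bZIP genes, beside the same 3.05%.

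Of 13 receptor kinase genes 2 rose at 3 h, beside 4.32% of all probe sets. For the difference 1 was called, below 0, beside 3.05% of all. B120, a lectin-type receptor-like kinase, had levels of 5.19, 6 and 6.42 in clean air and 7.98, 8.22 and 8.93 in ozone at 3 h. At 2 d they were 6, 6.67 and 7.97 in clean air and 5.76, 6.51 and 7.15 in ozone. B120 rose by 2.44 ± 0.33 at 3 h with no overlap, and its late minus early difference was -2.89 ± 0.44 (adjusted p = 0.000978). The receptor-like cytoplasmic kinase BIK1, a hub of pattern-triggered immunity, rose by 1.27 at 3 h, and its difference of -0.74 was not called.

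PUB24, a U-box ubiquitin ligase that dampens pattern-triggered immunity, had levels of 7.45, 8.02 and 8.86 in clean air and 9.37, 9.54 and 10.41 in ozone at 3 h. At 2 d they were 8.74, 8.9 and 9.51 in clean air and 8.22, 8.87 and 9.26 in ozone. PUB24 rose by 1.70 ± 0.25 at 3 h, where the ranges were apart, and the late minus early difference was -1.96 ± 0.33 (adjusted p = 0.00206). Its relative PUB23 rose by 1.42 at 3 h and had a difference of -1.32 that was not called. Among 9 U-box genes, 8 had a 3 h response above 0, beside 47.7% of all probe sets. By the test 2 rose at 3 h, beside 4.32% of all. PUB24 alone was called for the difference, beside 3.05% of all called below.

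Of the calcium sensors, CML42, a calmodulin-like protein of leaves and trichomes, gave the smallest adjusted p of all named genes. Its level was 8.08, 8.29 and 8.71 in clean air and 8.93, 9.52 and 9.74 in ozone at 3 h, and 9.53, 10.09 and 10.38 in clean air and 8.98, 9.22 and 9.6 in ozone at 2 d. CML42 rose by 1.13 ± 0.16 at 3 h and fell by 0.83 ± 0.14 at 2 d, a difference of -1.96 ± 0.21 (adjusted p = 5.34e-05). In clean air it rose by 1.77 from 3 h to 2 d, while in ozone its change of -0.19 was not called. CML37 rose at both times (3.46 and 1.90), and CML41 rose at 2 d alone (2.21), with a difference of 2.34 just outside the threshold (adjusted p = 0.0574).

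**Figure D4:**
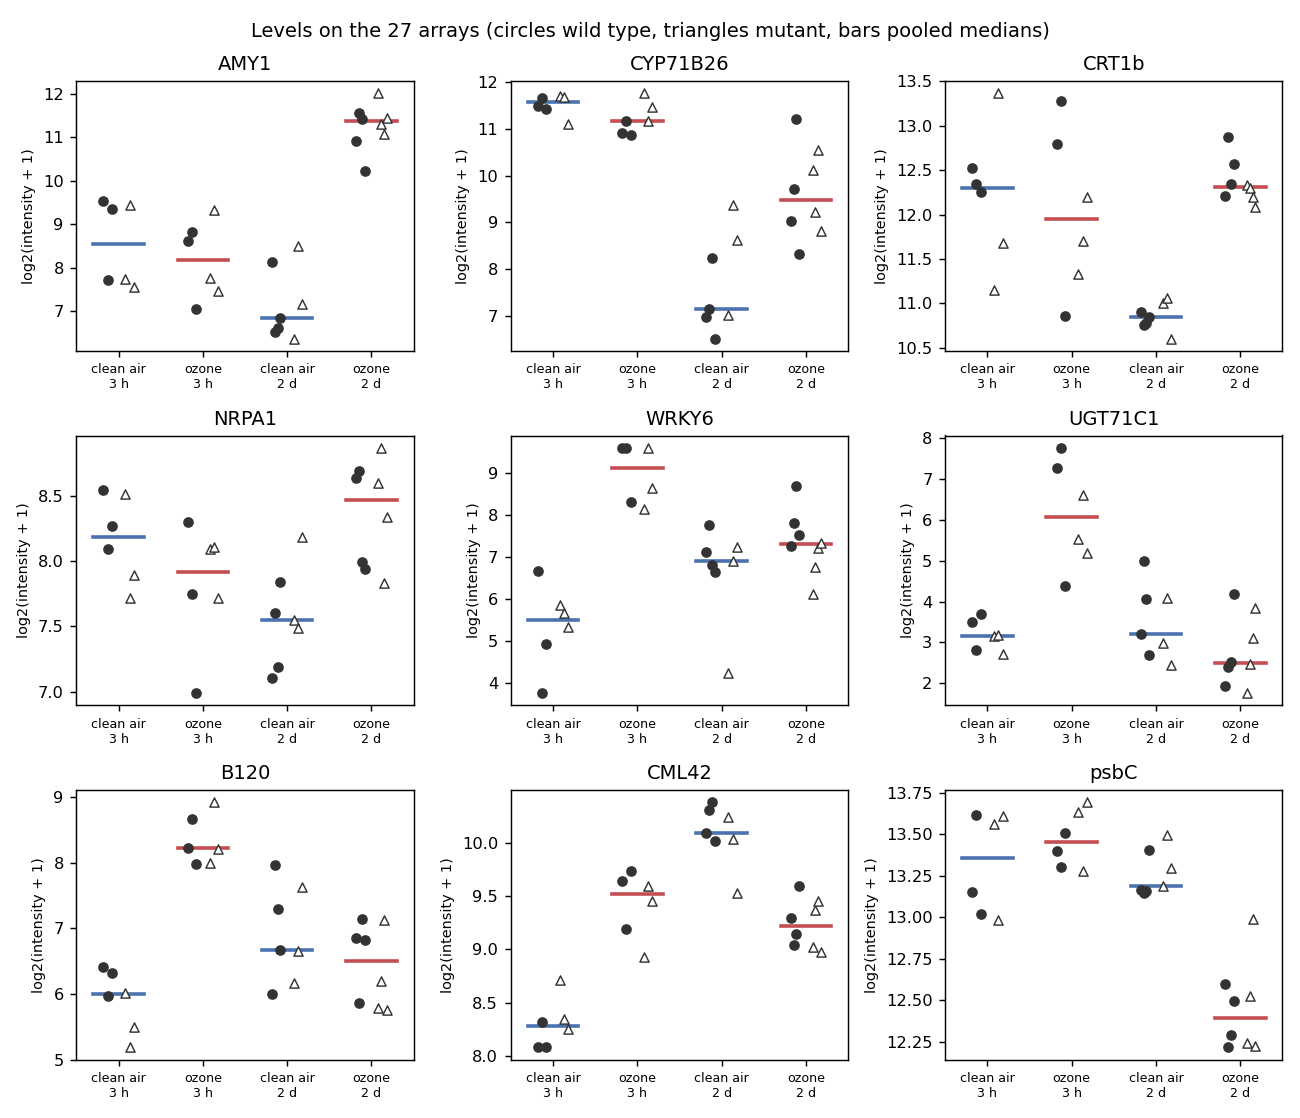
Level, log2(intensity + 1), on each array for 9 named genes in the 4 pooled groups (clean air and ozone at 3 h, clean air and ozone at 2 d), with circles for wild-type arrays, triangles for mutant arrays and a bar at the pooled median. AMY1 ozone arrays lie apart from clean-air arrays only at 2 d, and B120 and WRKY6 arrays only at 3 h.

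UDP-glycosyltransferases attach sugars to hormones, flavonoids and foreign compounds, and 5 of 47 measured genes had a late response below the early one and 1 above, beside 3.05% and 4.35% of all probe sets. With quantile normalization the counts were 4 and 2. UGT71C1 stood at 2.72, 3.17 and 3.7 in clean air and 4.38, 6.06 and 7.76 in ozone at 3 h, and at 2.46, 3.2 and 4.99 in clean air and 1.77, 2.5 and 4.19 in ozone at 2 d. It was dim on most arrays, rose by 2.94 ± 0.53 at 3 h without overlap, and had a difference of -3.62 ± 0.72 (adjusted p = 0.00502). UGT71B6, which glucosylates abscisate, rose from 2.07, 2.43 and 3.68 in clean air to 4.82, 6.29 and 7.52 in ozone at 3 h. At 2 d it stood at 3.74, 5.93 and 6.85 in clean air and 4.63, 6.41 and 7.24 in ozone, so that the clean-air level had itself risen by 3.20. The late minus early difference of UGT71B6 was -3.34 ± 0.72 (adjusted p = 0.00771).

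UGT73B5, tied to the redox state in pathogen defence, rose by 2.82 ± 0.41 at 3 h and had a 2 d response of 0.59 ± 0.37 and a difference of -2.22 ± 0.56. UGT71C5 and UGT85A3 were called by another route, with falls at 2 d of 0.69 and 0.58. UGT87A2 rose at both times, by 1.61 and 1.31. UGT76B1, which glucosylates salicylate and isoleucic acid, had a response of 4.25 at 3 h (adjusted p = 0.06) and rose by 4.24 at 2 d, with an SE of 1.79 on the difference. The median difference over the 47 genes was -0.358, beside -0.0686 over all probe sets. The gene called above was UGT78D2, a flavonoid 3-O-glucosyltransferase, at 1.32 ± 0.36, whose clean-air level fell by 2.05 from 3 h to 2 d.

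Of 25 membrane traffic genes 3 rose at 3 h, and of 10 autophagy genes 1 rose at 3 h and 2 at 2 d, beside 4.32% and 5.51% of all probe sets. KEU, a Sec1-type regulator of vesicle fusion, rose by 1.08 ± 0.24 at 3 h, where the ranges of 8.85 to 9.6 in clean air and 9.81 to 10.95 in ozone were apart. VPS60.1, an ESCRT-related protein, rose by 1.46 ± 0.26 at 3 h. Their differences were -1.13 ± 0.32 and -1.23 ± 0.35, the only 2 calls among 25 traffic genes, beside 3.05% of all probe sets called below. In these traffic genes 0 calls were left without any of 7 arrays taken singly. SEC1B rose by 1.43 at 3 h without a call for the difference. ATG8H, a ubiquitin-like protein of the autophagosome, rose by 1.07 ± 0.22 at 3 h with no overlap and had a difference of -1.15 ± 0.30 (adjusted p = 0.0216), whereas ATG8B and ATG8G rose at 2 d, by 0.93 and 0.59.

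Redox and sulfur genes were called singly. SUFE2, which activates the cysteine desulfurase of plastid iron-sulfur cluster assembly, rose by 3.22 ± 0.61 at 3 h and had a difference of -2.95 ± 0.82, called in 20 of 27 fits without 1 array. The carboxylesterase gene CXE20 rose by 3.09 ± 0.71 at 3 h, with a difference of -3.42 ± 0.95 that was called in 16 of 27 such fits. TAPX, the thylakoid ascorbate peroxidase that removes hydrogen peroxide at photosystem I, had a response of -0.03 at 3 h and fell by 1.38 ± 0.20 at 2 d. Its levels at 2 d were 10.63, 11.38 and 11.53 in clean air and 9.24, 9.85 and 10.67 in ozone, which overlap by a narrow margin, and its difference was -1.35 ± 0.29 (adjusted p = 0.00812). GRX480, a glutaredoxin of salicylate signalling, rose by 2.40 at 3 h, and its difference of -1.70 was not called. None of the 14 measured glutathione S-transferase genes was called in either response or in the difference, and members on unnamed probe sets were not counted.

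Of the 14 genes with the most negative difference, B120, CXE20 and SUFE2 carry a symbol in the gene table, and the other 11 are given by locus. AT3G23550 had the largest difference, -5.31 ± 0.86 (adjusted p = 0.00154). Its level was 6.88, 7.38 and 7.78 in clean air and 8.88, 10.54 and 11.91 in ozone at 3 h, and 9.56, 11.49 and 12.92 in clean air and 6.83, 8.89 and 11.02 in ozone at 2 d. AT3G23550 rose by 3.11 at 3 h and fell by 2.2 at 2 d, while its clean-air level rose by 3.91 between the times. AT1G26380 rose by 5.38 ± 0.68 and AT1G19020 by 4.55 ± 0.49 at 3 h, both without overlap, and their 2 d responses of 0.60 and -0.00 were not called. The 11 loci had 3 h responses from 2.40 to 5.38.

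Of 12 measured subunits of the nuclear RNA polymerases 7 were called above and 0 below, with 10 above 0 and a median difference of 0.694, beside 4.35% called above and a median of -0.0686 over all probe sets. The median response was -0.28 at 3 h, where 1 subunit fell, and 0.439 at 2 d, where 5 rose. This list and those of ribosome assembly, RNA processing, plastid-encoded genes and thylakoid assembly were added from the symbols with earlier results known. Their counts are a description only. The count of 7 dropped to 3 without replicate 1 of the wild type in clean air at 3 h and without replicate 2 of the wild type in ozone at 2 d, and to 4 without replicate 1 of the mutant in clean air at 2 d, while the median stayed above 0 in all 27 such fits, with 0.776 as its highest value.

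The called subunits belong to several polymerases. NRPE7, a subunit of polymerase V of RNA-directed DNA methylation, had levels of 7.43, 7.63 and 7.85 in clean air and 6.19, 7.03 and 7.28 in ozone at 3 h, with no overlap, and 7.72, 8.11 and 8.59 against 7.97, 8.59 and 8.96 at 2 d. It fell by 0.68 ± 0.19 at 3 h, and its late response lay 1.15 ± 0.25 above the early one (adjusted p = 0.00876). NRPA1, the largest subunit of polymerase I, which transcribes ribosomal RNA, rose by 0.77 ± 0.21 at 2 d, with a difference of 1.12 ± 0.31. NRPC2, of polymerase III, had responses of -0.53 and 0.55, neither called, and a difference of 1.08 ± 0.29. The polymerase II subunits NRPB12, NRPB7, NRPB6B and NRPB6A had differences of 0.95, 0.93, 0.63 and 0.53.

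Of 13 measured ribosome assembly genes, 11 had a difference above 0 and 3 were called above, beside 4.35% of all probe sets, with a median of 0.656. At 2 d 6 rose, beside 5.51% of all. AT5G41190, whose synonym in the gene table is NOB1, the nuclease that makes the last cut of small-subunit ribosomal RNA, fell by 0.58 ± 0.17 at 3 h and rose by 0.58 ± 0.15 at 2 d. Its levels at 2 d were 8.99, 9.07 and 9.25 in clean air and 9.27, 9.7 and 10.16 in ozone, without overlap, and its difference was 1.16 ± 0.23 (adjusted p = 0.00464). The genes of PESCADILLO (AT5G14520) and NOTCHLESS (AT5G52820), which act on the large subunit, rose at 2 d by 0.57 and 0.61, and their differences of 0.73 and 0.66 were not called (limma adjusted p = 0.0553 and 0.0563). The 3 calls for the difference were 1 in each of 8 fits without 1 array, and the list shares NRPA1, NRPA2, IMP4 and RRP41 with the lists beside it. Of the 3 calls, those of NRPA1 and RRP41 are also counted in the lists of polymerase subunits and RNA processing.

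RNA processing genes had a median difference of 0.371, with 3 of 20 called above, beside 4.35% of all probe sets, and 0 below. LSM3A, a ring protein of the spliceosome and of messenger decay, rose by 0.55 ± 0.13 at 2 d, with levels of 7.71, 7.87 and 8.1 in clean air and 8.18, 8.35 and 8.86 in ozone, and had a difference of 0.91 ± 0.19 (adjusted p = 0.00704). LSM6A and RRP41, a core subunit of the RNA exosome, had differences of 0.71 and 0.65. Without replicate 3 of the mutant in ozone at 3 h, 1 of these 3 calls was left.

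Plastid-encoded transcripts of photosynthesis gave falls at 2 d. None of the 45 plastid-encoded photosynthesis genes was called at 3 h, with a median response of 0.034, while 20 fell and 0 rose at 2 d, with a median of -0.524 and all 45 below 0. Over all probe sets 5.25% fell at 2 d and the median was -0.0563. The median difference was -0.52, and 3 genes (psbC, atpF and psbK) were called below and 0 above, beside 3.05% and 4.35% of all probe sets. The 2 d count of 20 was 10 without replicate 1 of the mutant in ozone and 13 without replicate 1 of the mutant in clean air, with medians from -0.591 to -0.465 over all 27 such fits. Plastid transcripts share polycistronic precursors, so that these genes are not independent, and the labelling kit is one that primes on poly(A) tails, which most plastid transcripts lack.

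psbC, the CP43 antenna protein of photosystem II, had levels of 12.98, 13.36 and 13.62 in clean air and 13.28, 13.45 and 13.69 in ozone at 3 h. At 2 d the levels were 13.14, 13.19 and 13.49 in clean air and 12.21, 12.39 and 12.99 in ozone, with no overlap. psbC fell by 0.82 ± 0.14 at 2 d, with a difference of -0.97 ± 0.20 (adjusted p = 0.00697). atpF, of the plastid ATP synthase, fell by 0.71 ± 0.16 and psbK, a small photosystem II subunit, by 0.40 ± 0.10, with differences of -0.88 and -0.51 called in 20 and 15 of 27 fits without 1 array. In clean air none of the 3 was called between the times, at -0.05, -0.06 and 0.06.

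Of 24 plastid genes of gene expression and other functions, 0 were called at 3 h and 12 fell at 2 d (5.25% of all probe sets). The medians were -0.0586 and -0.613. For the difference 4 were called below, beside 3.05% of all probe sets. These were the ribosomal protein genes rpl16 (-0.98 ± 0.24), rpl14 (-0.89 ± 0.27) and rps3 (-0.68 ± 0.18) and clpP (-0.81 ± 0.21), the plastid protease subunit. The 2 d count of 12 was 7 without replicate 2 of the wild type in clean air or without replicate 1 of the mutant in ozone. rpl14 was called in 6 of 27 fits without 1 array, and the ranges of these genes in the 2 airs overlapped at 2 d by narrow margins, as for rpl16 at 12.37 to 13.13 in clean air and 11.55 to 12.46 in ozone.

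Of 10 nuclear light harvesting and photosystem genes, all had a 2 d response below 0, with a median of -0.519, and 4 fell: PSAN by 0.78, PSBY by 0.51, LIL3:2 by 0.46 and PSBW by 0.34. This count was 1 in each of 7 fits without 1 array. None was called at 3 h or for the difference, whose median was -0.383. Among 18 genes of thylakoid assembly and electron flow, 9 fell at 2 d and 1 rose, with a median of -0.614. Over all probe sets 5.25% fell and 5.51% rose at 2 d, with a median of -0.0563. The falls among the 18 genes included NdhL and NdhN of the NADH dehydrogenase-like complex, by 0.88 and 0.82. They also included the photosystem II assembly factors LPA1, LPA2 and LPA19, by 0.58, 0.68 and 0.77.

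The gene that rose in that list was AT4G38100, whose synonym is CURT1D, of the family that bends thylakoid membranes. Its level was 10.38, 10.81 and 11.02 in clean air and 9.78, 10.09 and 10.42 in ozone at 3 h, and 9.25, 9.65 and 9.75 in clean air and 9.69, 10.53 and 10.67 in ozone at 2 d. AT4G38100 fell by 0.62 ± 0.17 at 3 h and rose by 0.80 ± 0.16 at 2 d, a difference of 1.42 ± 0.23 (adjusted p = 0.0017). Its relative AT4G01150 (CURT1A) fell by 0.49 ± 0.12 at 2 d, and its difference of -0.59 ± 0.18 was called in 4 of 27 fits without 1 array. HEMA2, a glutamyl-tRNA reductase at the start of tetrapyrrole synthesis, fell by 0.60 ± 0.15 at 2 d and had a difference of -1.08 ± 0.23 (adjusted p = 0.00734).

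**Figure D5:**
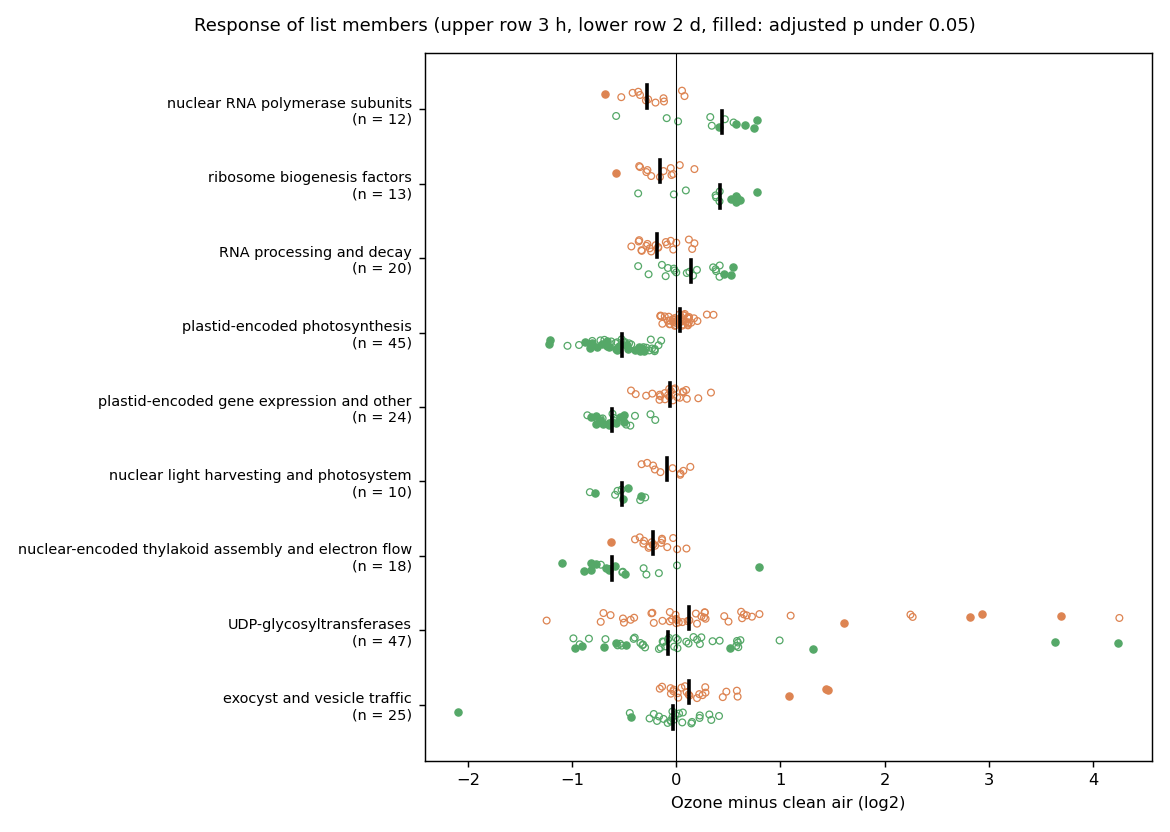
Ozone minus clean-air difference (log2) of each measured member of 9 gene lists, with 3 h in the upper row and 2 d in the lower row of each list, filled points for adjusted p under 0.05 and a bar at the median. Medians go from -0.28 to 0.439 for nuclear RNA polymerase subunits and from 0.034 to -0.524 for plastid-encoded photosynthesis genes. All lists but those of nuclear light harvesting and UDP-glycosyltransferases were added from the symbols with earlier results of these data known.

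Reversals, in which a gene passed at both times with opposite signs, were picked out after their values were seen. By probe set, 29 of the 983 early risers fell at 2 d, beside 5.25% of all. Of the 426 early fallers 61 rose at 2 d, beside 5.51% of all, and 21 (4.93%) fell again. Of genes with a probe set of their own, 15 rose at 3 h and fell at 2 d, with 3 h responses of 0.48 to 3.11 and 2 d responses of -2.2 to -0.41. Besides CML42 and PRA8 (0.71 at 3 h) these are named by locus only. Another 29 fell at 3 h and rose at 2 d, within narrower ranges of -1.07 to -0.42 and 0.33 to 1.05, and AT5G41190 (NOB1) and AT4G38100 (CURT1D) are 2 of them.

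Few genes of wall, secretion and metabolism were called for the difference, in both directions, beside 4.35% of all probe sets above and 3.05% below. Of 35 genes of wall polysaccharide synthesis and acetylation 1 was called above and 2 below. Each of 4 other lists had 1 call, above: 27 wall-loosening genes, 21 beta-glucosidases, 14 vacuolar processing enzymes and subtilases, and 15 tetraspanins. TBL26, a trichome birefringence-like protein of the family that acetylates wall polysaccharides, fell by 3.51 in clean air from 3 h to 2 d and had a late response 1.62 ± 0.44 above the early one. TBL38 fell at 2 d by 1.27 ± 0.20, with levels of 6.99, 7.45 and 7.85 in clean air and 4.91, 6.13 and 6.83 in ozone, and a difference of -1.49 ± 0.30 (adjusted p = 0.00526). TBL41 had a difference of -1.53 ± 0.46, called in 8 of 27 fits without 1 array, and XTH32, a xyloglucan-modifying enzyme, 1.48 ± 0.44, called in 6. BGLU44, a beta-glucosidase family member, and ATSBT5.2, a subtilisin-like protease, had differences of 1.48 ± 0.38 and 1.26 ± 0.32, with neither response called by itself. TET3, a tetraspanin of plasmodesmata, rose by 0.94 ± 0.20 at 2 d with a difference of 1.56 ± 0.30, whereas TET8 and TET9 rose at 3 h, by 1.90 and 1.48.

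In central metabolism, ACLA-1, a subunit of the ATP-citrate lyase that makes cytosolic acetyl-CoA, fell by 0.64 ± 0.12 at 2 d, with ranges of 11.31 to 11.62 in clean air and 10.4 to 11.05 in ozone, and a difference of -0.71 ± 0.17. ETFBETA, an electron-transfer flavoprotein subunit used in the breakdown of branched-chain amino acids, fell by 0.55 ± 0.13 at 2 d and had a difference of -0.76 ± 0.20. The isocitrate dehydrogenase gene ICDH had a difference of 0.84 ± 0.25, called in 9 of 27 fits without 1 array. Of 17 tricarboxylic acid cycle and citrate cleavage genes 1 was called above and 1 below, beside 4.35% and 3.05% of all probe sets. Of 10 genes of branched-chain amino acid breakdown 1 was called, below. Of 16 mitochondria-encoded genes 1 was called, above. The mitochondrial gene ccb203, for cytochrome c assembly, had a difference of 2.35 ± 0.39 at low levels of 2.83 to 6.32. GI, the clock component GIGANTEA, had a difference of 1.22 ± 0.34 with neither response called, and it rose by 1.81 from 3 h to 2 d in ozone.

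The genotype by ozone by time contrast called 0 probe sets by limma (0.0%), with 597 (2.62%) at an unadjusted p under 0.05, and 0 in every alternative that kept all arrays. Leaving out 1 array gave 0 or 1. The 1684 probe sets were chosen on the mean of the genotypes, so their signs in each genotype say little, and over all probe sets the median was -0.115 for the wild type and -0.00597 for the mutant. Tested by genotype in the same fit, 283 probe sets (1.24%) were called in wild type and 8 (0.0352%) in the mutant (0.673% above and 0.572% below in wild type, 0.00879% and 0.0264% in the mutant), counts whose difference was not itself called for any probe set.

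Values by genotype are given for 2 named loci, picked after their values were seen. AT5G05840 had a difference of 0.82 ± 0.64 in wild type and 3.99 ± 0.67 in the mutant. AT3G12910 had -4.93 ± 1.07 in wild type and -1.23 ± 1.1 in the mutant. The genotype contrast was 3.17 ± 0.92 for AT5G05840 and 3.70 ± 1.54 for AT3G12910, neither called (limma adjusted p of 1 for each). Their pooled differences were 2.40 and -3.08.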

How the data were processed

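The deposited values are intensities on a linear scale, 1 per probe set and array, made by the authors with Affymetrix Expression Console and RMA per the submitters' processing notes, which give no version. Background correction, summary and scaling are not given in the sources used here. The 2% trimmed mean lay between 495.9 and 496.8 on all arrays, while medians ran from 153.5 to 182. Quantile-normalized arrays would have equal medians, so the RMA label is uncertain for these values. The deposited values were used as log2(intensity + 1), unfiltered and not normalized further. limma 3.58.1 in R 4.3.3 fitted 8 group means to 27 arrays (19 residual and 2.53 prior degrees of freedom), with Benjamini-Hochberg adjustment over 22746 probe sets and a threshold of 0.05, and was tested on simulated data. The platform annotation gave 13513 probe sets 1 gene, 503 several, and the other 8730 are unnamed here. Names were updated from the TAIR10.1 gene table, and for 77 probe sets the gene was not in it. Named genes are the 14 most positive and 14 most negative called differences with the same sign in both genotypes and a group mean of at least 7, plus up to 3 called members of each list, 76 in all, each shown by its brightest probe set. Of 55 lists with at least 3 measured members, 24 were added from the symbols seen. Among the 24 are nuclear RNA polymerase subunits, ribosome assembly, RNA processing, plastid-encoded genes, thylakoid assembly and electron flow, and membrane traffic. They also include receptor kinases, AP2/ERF and zinc-finger factors, glutamate receptor-like channels, IQ-domain proteins, tetraspanins, beta-glucosidases and central metabolism. The members and lists were chosen with earlier results of these data known. Replicate numbers were not taken to pair arrays. P-values measure the spread between these samples, and the number of arrays limits the precision. Alternatives were a pseudocount of 16, a mean of at least 6, quantile normalization, median centring, array weights, a trended robust prior, replicate blocks, each genotype alone and each array left out.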

Additional observations from a re-analysis of the deposited data

Results flagged for a closer look

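The main flagged result is the comparison itself: ozone responses at the 2 sampling times differed in 1684 probe sets. Among the 76 named genes, single arrays stood apart from the rest of their group in 14 of 228 groups of 4 arrays, where chance gives about 5%. All are at 2 d, since groups of 3 cannot be examined in this way, and values are log2(intensity + 1).

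In wild type in ozone, AT3G28540 had 9.922 on replicate 1 (others 11.23 to 11.49), TBL26 had 11.43 on replicate 1 (9.605 to 9.775), AT2G37580 had 8.964 on replicate 3 (8.129 to 8.26) and XTH32 had 9.972 on replicate 3 (9.391 to 9.46). On replicate 4 of that group psbK had 13.44 (13.16 to 13.2), TET3 10.04 (11.03 to 11.12) and AT4G38100 9.685 (10.52 to 10.56). In wild type in clean air, CXE20 had 6.267 on replicate 1 (4.479 to 4.672), ccb203 had 2.828 on replicate 1 (3.733 to 3.828), AT3G54150 had 9.539 on replicate 2 (7.45 to 7.766) and psbC had 13.4 on replicate 4 (13.14 to 13.16). In the mutant in ozone, AT3G16530 had 9.193 (10.55 to 10.74) and AT1G52200 had 9.102 (11.1 to 11.17) on replicate 1, and NRPE7 had 7.97 on replicate 3 (8.855 to 8.962).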

How the results depend on the processing

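The early against late difference stayed within 1.5 times of 1684 calls under a pseudocount of 16, a mean of at least 6, quantile normalization, median centring and a trended robust prior (1728 to 2175). Array weights raised it to 3486, and the 3 h and 2 d counts to 4403 and 3783. Wild-type arrays alone gave 13 calls and mutant arrays alone 1, where fewer samples entered the fit. Leaving out 1 array gave 1105 to 2112 for the difference, 750 to 2526 at 3 h, 1378 to 2863 at 2 d, 3335 to 4266 for clean air over time and 0 to 1 for the genotype contrast. Replicate numbers were not taken to pair arrays, and whether they mark a shared batch was not tested. Within a time, 16 of 39 same-numbered pairs correlated above 0.1, a larger share than the 17 of 99 differently numbered pairs (medians 0.067 and -0.043). The replicate block gave 2077 calls, and the block within time 2392, with 2181 at 3 h; the clean-air contrast could not be fitted with the latter, as time and block cannot be told apart there. No named gene reversed. Of 76, 49 stayed called whichever array was left out, 72 under quantile normalization and 75 with a pseudocount of 16 (TBL41 missed). By brightness, 97.1% of the 990 and 83.7% of the 694 called had a group mean of at least 7, against 61.8% of all.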

Other observations

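The groups given here were picked after their values were seen. Over all probe sets 5.25% fell at 2 d and 1.87% fell at 3 h. Of 9 tubulin and actin genes, 3 fell at 2 d: TUB7, a beta-tubulin, by 1.48 ± 0.23, TUB1 by 1.12 ± 0.27 and TUA6 by 0.60 ± 0.13. TUB5 fell by 0.995 at 3 h. All 9 had a 2 d response below 0, with a median of -0.611 beside -0.0563 over all probe sets, and none was called for the difference. Of 7 histone genes, HTB2 and HTB1, of the H2B class, fell at 2 d by 1.04 and 0.61. Of 15 IQ-domain genes, which bind calmodulin, 4 fell at 2 d, a count that was 1 without replicate 1 of the mutant in clean air, and IQD31 fell at 3 h by 0.47.

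Of 8 glutamate receptor-like channel genes, 3 rose at 2 d, beside 5.51% of all probe sets. They were GLR2.8 by 1.91, GLR1.4 by 1.78 and GLR2.7 by 1.22, while GLR3.6 fell by 0.58. GLR2.8 also rose at 3 h, by 1.23. CHI, a chitinase-type defence gene, rose by 4.15 ± 0.67 at 2 d, with a 3 h response of 0.96 ± 0.75, and its difference of 3.19 was not called (limma adjusted p = 0.0554). The peptide signal gene RALFL34 fell at 2 d by 1.38, and the defensin-like genes LCR69 and LCR68 fell at 3 h by 1.36 and 0.85. HYH, a light-response factor, rose at 2 d by 1.66.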
